A study of Mus musculus with 6 samples.

Results

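Neural progenitor and neuron genes were followed in RNA from the second heart field region of mouse embryos. The group was chosen by name as 40 genes of neural progenitors and early neurons, and 36 of them had a row among the 16832 genes of the authors' deposited table. Neurog1, Phox2a, Myt1l and Stmn3 were not analysed here. The region was microdissected at embryonic day 9.5. Control samples carried Mef2c-Cre, and gain-of-function (GoF) samples carried the Hoxb1GOF allele together with Mef2c-Cre, so both groups share the Cre driver, which acts in second heart field cells. The labels list 3 samples per group. Values come from control replicates 2 and 3 and from GoF replicates 1, 2 and 3. Control replicate 1 is not analysed here, as the table used holds the other 5 libraries. The labels name neither pooling of embryos nor a sort of the cells, and do not say that replicates came from separate embryos, so a p-value here speaks to the spread among the libraries alone.

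Neural progenitors of the neural tube and of the sensory placodes are held in a dividing state by SoxB1 factors such as Sox1 and Sox2. Proneural basic helix-loop-helix (bHLH) factors then push single cells out of division, Notch signalling restrains their neighbours, and the new neurons switch on RNA-binding proteins of the Elavl family, a neuronal cytoskeleton and synaptic genes. The hindbrain, cranial ganglia and neural crest lie beside the second heart field in the embryo. In bulk tissue, fewer cells of a type and less RNA per cell cannot be told apart.

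The libraries gave 34260116 to 44384354 reads. Hoxb1 read 751.6 and 610.2 in control tissue as normalized counts and 1021.8 ± 19.1 in GoF (SD, n = 3; log2 fold change 0.59, SE 0.12, limma adjusted p = 0.0147). Normalized counts are reads scaled in each library by a single factor. The Hoxb1 call did not hold without GoF replicate 1 (adjusted p = 0.0597) or after removal of the GC trend described next (adjusted p = 0.251). Log2 fold changes followed the GC content of the transcripts across all genes (Spearman rho = 0.56 over 16266 genes), so each result was also taken with that trend removed. GoF replicate 1 lay between GoF replicates 2 and 3 in 62.9% of the 16794 genes tested and in 25 of the 36 neural genes, a place that 3 interchangeable libraries would take equally often. Whether the GoF libraries are independent was not tested, so an SD with n = 3 takes them as separate. Values are also given without GoF replicate 1 where this ends the call of a neural gene of the group. Of 54 called genes in the other lists (Tubb3 included), 26 did not pass without this library, and not all of them are marked. These lists include floor and roof plate and endothelium, which are not described below. Mitochondrial genes took 50.7% and 44.4% of the reads in the controls and 35.7% to 37.4% in GoF, and the part of this difference in the neural changes was not tested.

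Both genes taken as markers of the group were detected, and they differed in opposite directions. Elavl4, a neuronal RNA-binding protein that stabilises messages of differentiating neurons, had 452.6 and 496.7 normalized counts in the control pair against 228.7, 237.8 and 178.8 in GoF. Tubb3, the beta tubulin used as a pan-neuronal marker, had 3.5 and 15.0 in the controls and 40.0, 38.8 and 38.0 in GoF. The control and GoF values do not overlap for either gene, and Tubb3 was among the least abundant genes of the group. Per kilobase of the longest transcript, its mean control level was 4.95 normalized counts, against 114.4 for Elavl4, 468.1 for Elavl2 and 540.6 for the growth cone gene Gap43. The highest levels per kilobase after Gap43 belonged to the progenitor factor Sox1 (493.3), Elavl2, Zic1 (370.5), Ncam1 (317.6) and Pax6 (293.5), and the lowest to Grin2b (4.13).

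In the comparison of GoF with control, 9 of the 36 neural genes fell and 4 rose, and 23 did not pass (limma, Benjamini-Hochberg adjusted p under 0.05 over all genes). Among all 16794 genes tested, 10.9% fell and 12.2% rose, so the neural genes fell at 25.0% against 10.9% and rose at 11.1% against 12.2%. The genes that fell were Elavl2, Elavl4, Pou3f2, Pou3f3, Onecut2, Neurod1, Zic1, Cntn2 and Grin2b. Those that rose were Otx2, Zic2, Tubb3 and Ina. The median log2 fold change was -0.28 over the neural genes and -0.01 over all genes tested. Groups did not overlap for 15 neural genes that were lower in GoF and 5 that were higher, where 27.6% and 27.3% of all genes tested separated in these directions.

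**Figure D1:**
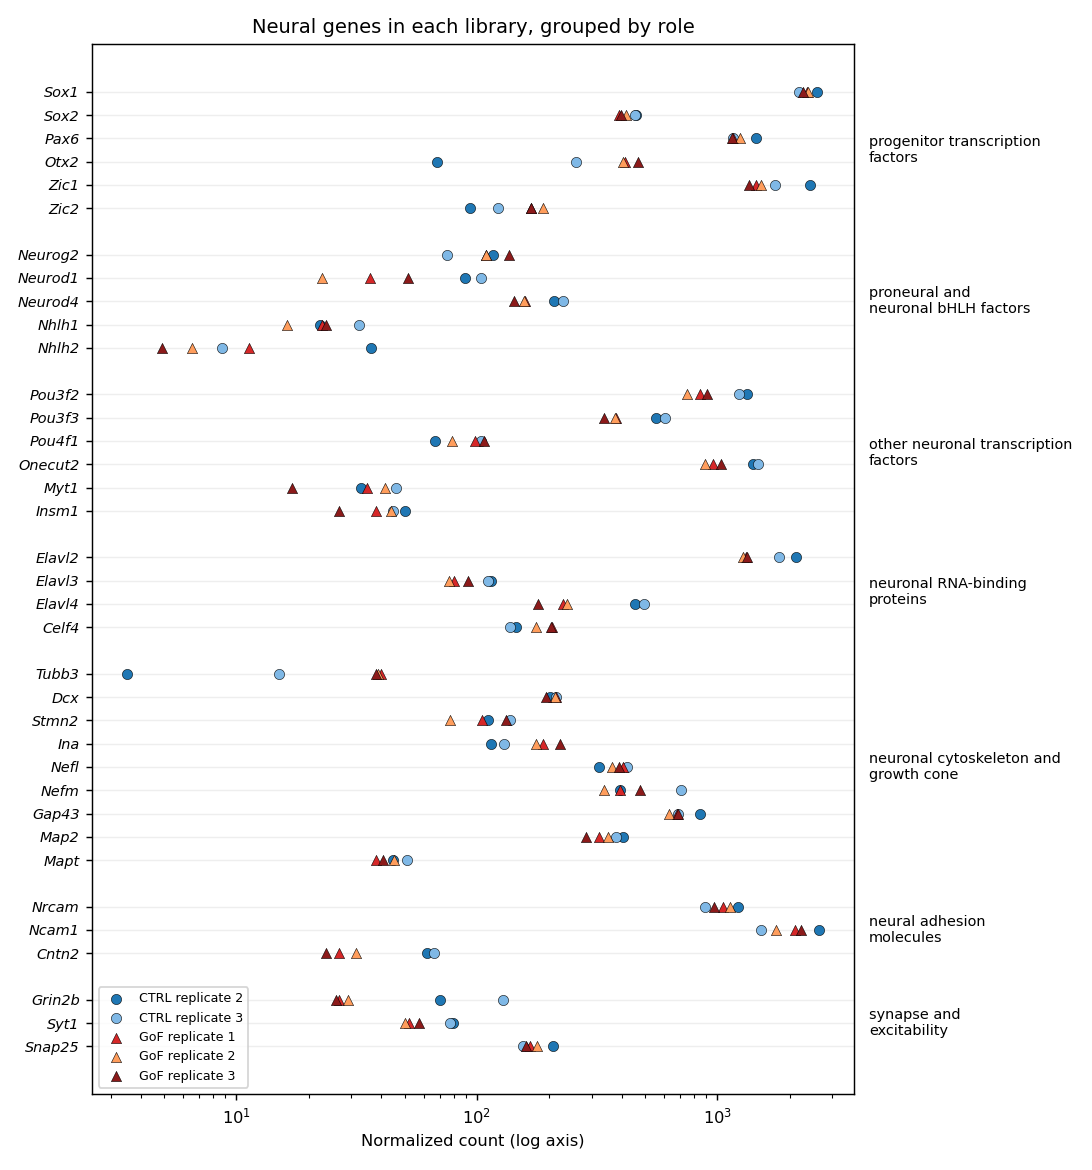
Normalized count (log axis) of the 36 neural genes in each of the 5 libraries, grouped by role, with circles for controls and triangles for GoF. Elavl4, Onecut2 and Pou3f2 show GoF triangles to the left of both control circles, and Otx2 and Tubb3 show them to the right.

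The fall of 5 genes, Elavl2, Elavl4, Pou3f2, Onecut2 and Grin2b, was called again when each of the 5 libraries was left out in turn. The other 8 calls each needed particular libraries. Without control replicate 2, Zic1, Zic2, Neurod1 and Ina did not pass, and without control replicate 3, Neurod1 and Cntn2 did not. All 8 missed the threshold without GoF replicate 1, all but Pou3f3 without GoF replicate 2, and all but Pou3f3 and Neurod1 without GoF replicate 3. DESeq2 and edgeR on the recovered reads each called 9 neural genes lower and 3 higher, where DESeq2 called 13.3% of all genes lower and 13.2% higher and edgeR 10.2% and 12.4%. After removal of the GC trend, 3 of the 13 called genes were called in the same direction, Pou3f3, Cntn2 and Grin2b, and Sox1 was called lower as well. The median of the neural genes was then -0.29, against 0.00 for all genes, and 4 neural genes fell and 0 rose (limma; at an unadjusted p under 0.05, 13 were lower and 2 higher), where 3.33% and 3.11% of all genes passed in these directions. Without GoF replicate 1 and without the GC trend, 0 neural genes passed (limma; at an unadjusted p under 0.05, 11 were lower and 0 higher, and no other tool was run there), with 0.442% of all genes called lower and 0.356% higher.

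**Figure D2:**
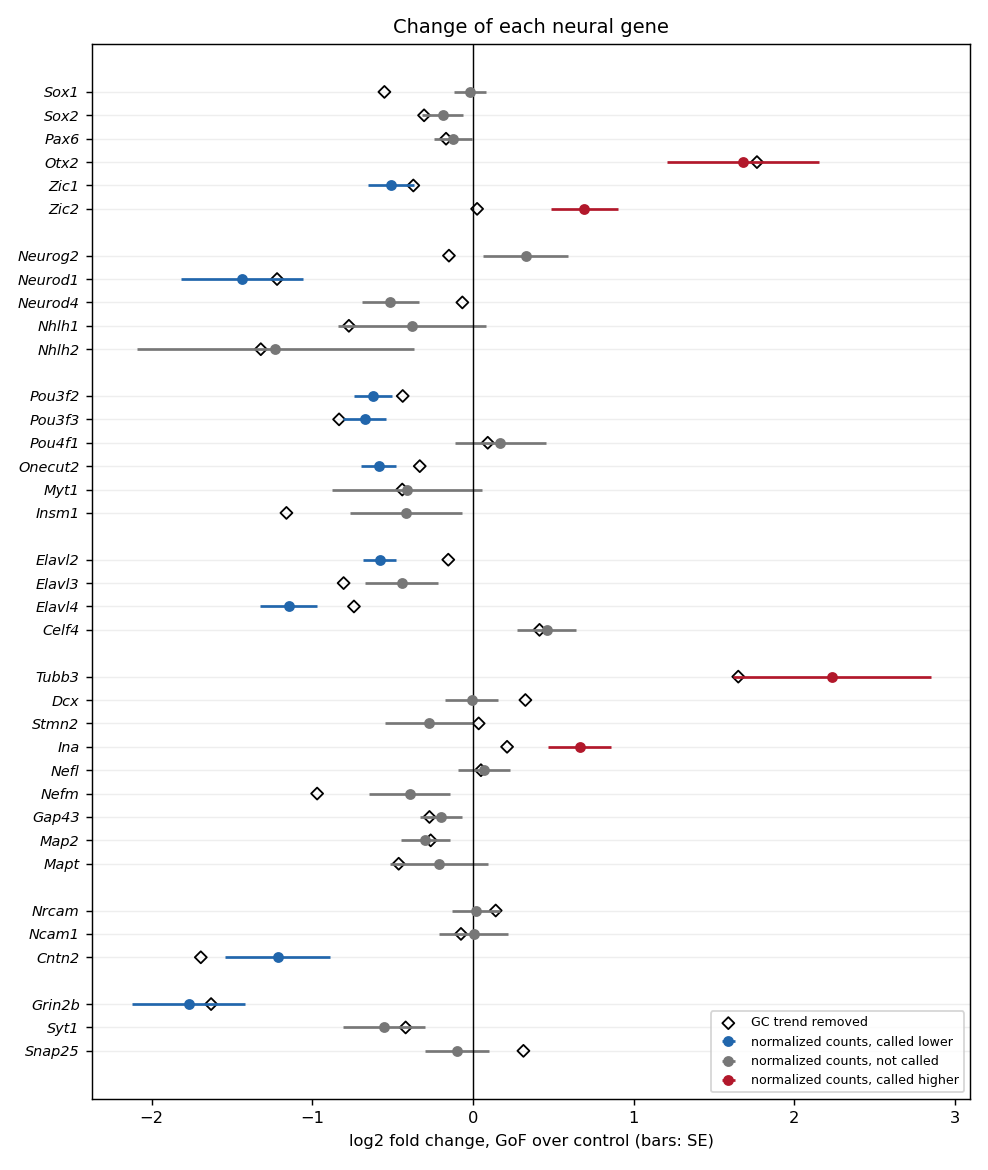
Log2 fold change of GoF over control for each neural gene, with the SE as a bar (filled circles, limma on the normalized counts) and with the GC trend removed (open diamonds). Elavl4 moves from -1.15 to -0.74 and Zic2 from 0.69 to 0.03 when the trend is removed, while Grin2b stays at -1.77 and -1.63.

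Progenitor transcription factors went both ways: 2 of 6 rose, 1 fell and 3 did not pass. Otx2, a homeobox factor of the forebrain and midbrain, had 68.0 and 257.1 normalized counts in the control pair against 411.2, 405.2 and 467.6 in GoF. It rose by this test (log2 fold change 1.68, SE 0.47, limma adjusted p = 0.0401), but the controls differed 3.78-fold between themselves. The log2 fold change was 0.73 without control replicate 2 and 2.63 without control replicate 3. The Otx2 call was lost with DESeq2 (adjusted p = 0.104) and with edgeR (adjusted p = 0.0536), and without any single GoF library (limma adjusted p = 0.0989 to 0.227) or with the GC trend removed (1.77, adjusted p = 0.0724).

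The zinc finger factors Zic1 and Zic2, which keep dorsal neural progenitors dividing, moved in opposite directions. Zic1 had 2424.7 and 1729.6 counts in the control pair against 1447.9, 1520.6 and 1351.1 in GoF (log2 fold change -0.51, SE 0.14, limma adjusted p = 0.0395). Zic2 had 93.8 and 122.3 counts in the control pair against 167.1, 187.7 and 167.5 in GoF (log2 fold change 0.69, SE 0.21, limma adjusted p = 0.0466). Without control replicate 2 the Zic1 value was -0.27 (adjusted p = 0.0952). Neither call remained with the GC trend removed (adjusted p = 0.134 for Zic1 and 0.943 for Zic2) or without GoF replicate 1 (adjusted p = 0.0798 and 0.175). Their transcripts differ in GC content, at 45.7% for Zic1 and 59.9% for Zic2. Zic4, the neighbour of Zic1 on chromosome 9 with an overlapping start on the other strand, had 201.7 and 248.3 counts in the control pair against 98.4, 84.1 and 127.8 in GoF (log2 fold change -1.13, SE 0.24, limma adjusted p = 0.0169, and 0.0424 after GC removal). Zic4 was chosen after its values were seen, and its call did not hold without GoF replicate 1 (adjusted p = 0.0517).

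The SoxB1 factors and Pax6 did not pass. Sox1 had 2592.4 and 2175.1 counts in the control pair against 2361.5, 2390.9 and 2272.6 in GoF, so the groups overlap. Its transcript is GC-rich (56.9%), and its log2 fold change was -0.02 from the normalized counts and -0.55 with the GC trend removed (limma adjusted p = 0.038). Sox2, a factor of neural progenitors and of pharyngeal endoderm, had 459.6 and 455.5 counts in the control pair against 390.7, 418.2 and 396.4 in GoF, lower in every GoF library without passing (limma adjusted p = 0.304). Sox2 lies within Sox2ot, a long noncoding RNA on the same strand (chromosome 3, 34104270 to 34682619, build mm10). Sox2ot, chosen after its values were seen, fell from 881.7 and 738.7 counts in the control pair to 455.3, 487.7 and 426.4 (log2 fold change -0.82, SE 0.13, limma adjusted p = 0.00778, and 0.0391 after GC removal). Pax6, a homeobox factor of neural progenitors, had 1442.2 and 1156.8 counts in the control pair against 1159.7, 1244.8 and 1155.3 in GoF.

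Among 5 proneural and neuronal bHLH factors with values, Neurod1 fell and 4 did not pass. Neurod1, which drives the differentiation of sensory ganglion neurons, had 89.1 and 103.6 counts in the control pair against 35.9, 22.6 and 51.8 in GoF (log2 fold change -1.44, SE 0.38, limma adjusted p = 0.0324). The highest GoF library thus lay well below the lower control, although the GoF values spread widely. The call did not hold without GoF replicate 1 (adjusted p = 0.0739) or after GC removal (adjusted p = 0.0889). Neurod4, a related factor acting at neuronal commitment, had 209.9 and 228.4 counts in the control pair against 158.9, 156.9 and 143.2 in GoF (limma adjusted p = 0.0685). Neurog2, which stands upstream of both as a proneural gene, had 116.1 and 74.9 counts in the control pair against 108.7, 109.2 and 135.9 in GoF (limma adjusted p = 0.389). Nhlh1 and Nhlh2, bHLH factors of newly born neurons, were low, with Nhlh1 between 16.2 and 32.4 counts in the 5 libraries and Nhlh2 between 4.9 and 36.3.

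Of 6 other neuronal transcription factors with values, 3 fell and 3 did not pass. Pou3f2 and Pou3f3 encode POU domain factors (Brn2 and Brn1) of neural progenitors and neurons. Pou3f2 had 1332.0 and 1229.2 counts in the control pair against 849.0, 744.9 and 905.3 in GoF (log2 fold change -0.62, SE 0.12, limma adjusted p = 0.0117). Pou3f3 had 556.9 and 602.7 counts in the control pair against 379.4, 373.7 and 336.6 in GoF (log2 fold change -0.67, SE 0.13, limma adjusted p = 0.013). Onecut2, a homeobox factor of early neurons, had 1410.5 and 1475.0 counts in the control pair against 960.8, 887.3 and 1038.0 in GoF (log2 fold change -0.59, SE 0.11, limma adjusted p = 0.0107). These genes therefore fell by similar amounts, with every GoF library below both controls. After GC removal Pou3f3 passed (-0.83, adjusted p = 0.0161), while Pou3f2 (-0.44, adjusted p = 0.0545) and Onecut2 (-0.33, adjusted p = 0.090) did not. The Pou3f3 call did not hold without GoF replicate 1 (adjusted p = 0.0536).

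The remaining factors of this kind were scarce. Pou4f1 (Brn3a), a factor of sensory neurons, had 66.8 and 103.6 counts in the control pair against 98.4, 78.5 and 106.8 in GoF. Insm1, a zinc finger factor of cells leaving the progenitor state, had 50.4 and 44.9 counts in the control pair against 37.9, 43.7 and 26.7 in GoF. Myt1, a zinc finger factor of neuronal differentiation, ranged from 17.0 to 46.2 counts over the 5 libraries. The groups overlap for Pou4f1 and Myt1.

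Neuronal RNA-binding proteins gave 2 falls among 4 genes, with 2 that did not pass. Elavl2, which encodes HuB, had 2125.7 and 1798.2 counts in the control pair against 1314.6, 1278.8 and 1329.3 in GoF (log2 fold change -0.58, SE 0.10, limma adjusted p = 0.00977). Elavl4, which encodes HuD, fell further (log2 fold change -1.15, SE 0.18, limma adjusted p = 0.00686). Elavl3, which encodes HuC, had 114.9 and 111.1 counts in the control pair against 83.0 ± 8.13 in GoF (SD, n = 3), lower in every GoF library without passing (log2 fold change -0.44, SE 0.23, limma adjusted p = 0.182). The ubiquitous relative Elavl1 (HuR), named here after its values were seen, had 4885.8 and 4688.3 counts in the control pair against 4820.0 ± 140.9 in GoF (SD, n = 3; limma adjusted p = 0.935). Elavl2 and Elavl4 have transcripts of low GC content (38.5% and 38.9%), and with the GC trend removed neither passed, at -0.15 (adjusted p = 0.294) and -0.74 (adjusted p = 0.0608). Celf4, a splicing and translation regulator of neurons, went the other way, with 145.4 and 137.3 counts in the control pair against 206.1, 176.3 and 203.1 in GoF, and did not pass (limma adjusted p = 0.102).

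Promoters from RefSeq (build GRCm38.p6, the same assembly as mm10) were matched by symbol for 24 of the 36 genes, taking the most upstream start and the stretch from 250 bases before to 50 after it. They are shown for Elavl2, Elavl4 and Zic1, which fell, and for Tubb3, which rose. All are written 5′ to 3′ on the strand of the gene, at chr4:91399935-91400234 (minus), chr4:110351862-110352161 (minus), chr9:91365719-91366018 (minus) and chr8:123411303-123411602 (plus). Capitals mark matches on either strand to the E-boxes CAGCTG and CAGATG, which bHLH dimers bind, and to TGATNNAT, the pattern of paired Hox and Pbx sites.
Elavl2: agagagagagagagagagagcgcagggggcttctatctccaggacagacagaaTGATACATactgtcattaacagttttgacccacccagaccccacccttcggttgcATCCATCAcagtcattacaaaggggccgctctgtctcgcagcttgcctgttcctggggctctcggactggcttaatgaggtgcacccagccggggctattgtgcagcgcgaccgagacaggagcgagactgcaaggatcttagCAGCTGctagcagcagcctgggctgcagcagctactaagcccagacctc
Elavl4: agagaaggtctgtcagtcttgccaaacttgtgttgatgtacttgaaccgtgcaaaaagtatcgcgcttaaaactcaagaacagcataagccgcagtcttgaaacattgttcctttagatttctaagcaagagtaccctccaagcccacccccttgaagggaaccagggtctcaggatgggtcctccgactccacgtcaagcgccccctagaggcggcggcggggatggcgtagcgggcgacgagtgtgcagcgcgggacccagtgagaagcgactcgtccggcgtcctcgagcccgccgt
Zic1: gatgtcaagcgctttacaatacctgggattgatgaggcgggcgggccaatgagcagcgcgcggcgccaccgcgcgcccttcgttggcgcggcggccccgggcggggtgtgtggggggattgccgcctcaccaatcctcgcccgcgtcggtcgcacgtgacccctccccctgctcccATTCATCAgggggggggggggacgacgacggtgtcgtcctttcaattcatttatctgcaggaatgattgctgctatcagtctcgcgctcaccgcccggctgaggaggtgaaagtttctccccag
Tubb3: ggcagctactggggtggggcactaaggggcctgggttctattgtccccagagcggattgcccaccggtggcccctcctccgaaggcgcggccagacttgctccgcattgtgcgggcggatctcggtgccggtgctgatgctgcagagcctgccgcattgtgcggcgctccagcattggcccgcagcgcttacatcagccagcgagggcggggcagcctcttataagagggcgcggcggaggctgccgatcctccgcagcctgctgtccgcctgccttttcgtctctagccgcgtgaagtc
CAGCTG was found in 5 of the 24 promoters (Elavl2, Elavl3, Ina, Nhlh2 and Pou4f1) and in 16.1% of 27025 promoters of the same length. CAGATG was found in 2 (Nhlh1 and Nhlh2) and in 17.3% of all. TGATNNAT was found in 3 (Elavl2, Zic1 and Dcx) and in 9.02% of all, and it occurs at more than 1 place in Elavl2. It was in 2 of the 7 promoters of genes that fell, both shown, and in 0 of 3 that rose. The promoters of Cntn2, Neurod1, Pou3f2 and Pou3f3, which also fell, held no match to these patterns and are not shown. The matches describe these letters in these windows only. The 4 promoters shown have a GC content of 57.0% (Elavl2), 57.0% (Elavl4), 65.3% (Zic1) and 67.3% (Tubb3).

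Of 9 genes of the neuronal cytoskeleton and growth cone, 2 rose and 7 did not pass. Tubb3 rose (log2 fold change 2.23, SE 0.62, limma adjusted p = 0.0362), from a level at which the controls differed 4.26-fold between themselves. Its log2 fold change was 1.32 without control replicate 2 and 3.14 without control replicate 3. Ina, which encodes the neuronal intermediate filament internexin, had 114.9 and 129.8 counts in the control pair against 187.6, 176.3 and 220.9 in GoF (log2 fold change 0.66, SE 0.20, limma adjusted p = 0.0446). Both calls did not hold without GoF replicate 1 (adjusted p = 0.14 for Tubb3 and 0.176 for Ina) or after GC removal (adjusted p = 0.126 and 0.518). In the annotation, 14.1% of the exon bases of Ina are shared with Nt5c2 on the other strand, and the strand setting of the counting is not given in the sources used here.

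Other markers of young neurons in this class did not pass. Dcx, which encodes the microtubule protein doublecortin of migrating neurons, had 200.5 and 213.4 counts in the control pair against 212.3, 211.9 and 193.4 in GoF. Stmn2, a microtubule regulator of growing axons, had 111.4 and 137.3 counts in the control pair against 104.6, 77.6 and 131.9 in GoF. Gap43 had 848.9 and 686.3 counts in the control pair against 677.8, 630.9 and 686.9 in GoF. Their groups overlap, and so do those of the neurofilament genes Nefl and Nefm and of Mapt, which encodes the axonal protein tau. Nefl lies within the span of Nefm on the opposite strand of chromosome 14, and they share 1108 exon bases, 32.8% of Nefl and 19.2% of Nefm, so their counts are uncertain. Nefl had 322.4 and 421.8 counts in the control pair against 387.5 ± 20.4 in GoF, and Nefm 391.6 and 703.8 against 403.4 ± 70.02 (SD, n = 3). Map2, a dendritic microtubule protein, was at 403.3 and 378.1 in the controls and 318.7 ± 34.1 in GoF (SD, n = 3), lower in every GoF library without passing (limma adjusted p = 0.185).

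Of 3 neural adhesion genes, Cntn2 fell and 2 did not pass. Cntn2, which encodes the axonal glycoprotein TAG-1 of early projecting neurons, had 62.1 and 66.1 counts in the control pair against 26.7, 31.5 and 23.5 in GoF (log2 fold change -1.22, SE 0.33, limma adjusted p = 0.034). The fall was larger with the GC trend removed (-1.69, adjusted p = 0.0281) for this GC-rich transcript (56.0%), and the call did not hold without GoF replicate 1 (adjusted p = 0.146). Ncam1 and Nrcam, adhesion molecules found also outside the nervous system, differed more between the controls than between the groups. Ncam1 had 2645.1 and 1523.7 counts in the control pair against 2094.9, 1751.1 and 2232.2 in GoF, so that all GoF libraries lay between the controls. Nrcam did the same, with 1214.7 and 886.0 counts in the control pair against 1057.2, 1131.6 and 970.0 in GoF.

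Genes of synapse and excitability were low, and 1 of 3 fell. Grin2b, the GluN2B subunit of the NMDA glutamate receptor, had 70.3 and 128.5 counts in the control pair against 26.7, 29.1 and 25.9 in GoF (log2 fold change -1.77, SE 0.35, limma adjusted p = 0.0133). This was the lowest fold change in the group, and its call passed in 16 of 18 alternative settings. The exceptions were both settings that join the removal of the GC trend with a reduced design (adjusted p = 0.144 without GoF replicate 1, and 0.165 with the replicate number as a block). Syt1, the calcium sensor of synaptic vesicles, had 79.7 and 77.4 counts in the control pair against 52.3, 50.1 and 57.4 in GoF, lower in every GoF library without passing (limma adjusted p = 0.15). Snap25, a protein of vesicle fusion, had 207.5 and 156.0 counts in the control pair against 166.1, 177.9 and 159.4 in GoF, and the groups overlap.

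**Figure D3:**
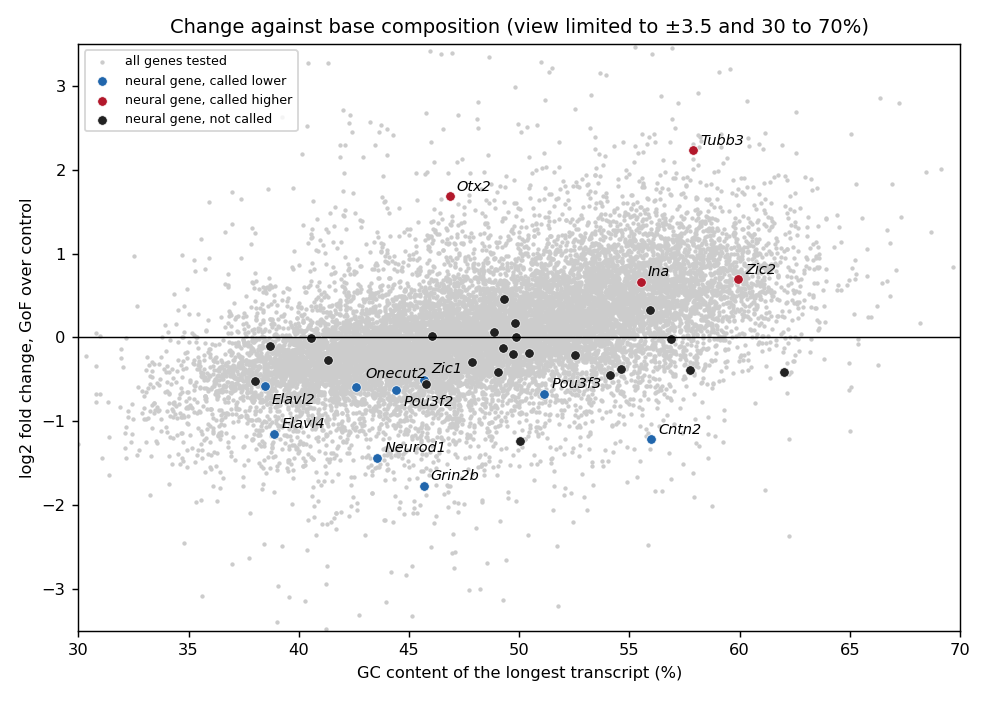
Log2 fold change of GoF over control (vertical axis) against GC content of the longest transcript in percent (horizontal axis), with all genes tested in grey and the neural genes in colour by call. Elavl2, Elavl4 and Onecut2 lie among low-GC genes that were mostly below 0, Cntn2 and Grin2b lie below most genes of their GC content, and Tubb3 and Otx2 above most.

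Split at the middle by GC content, the 18 neural genes from 38.0% to 49.3% had a median log2 fold change of -0.46 with 7 called lower and 1 higher. The 18 genes from 49.3% to 62.0% had a median of -0.19 with 2 called lower and 3 higher. Without the GC trend these medians were -0.22 and -0.38. Over the 36 genes the fold change and GC content had a Spearman rho of 0.33, as a description, since all points share the same 5 libraries.

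Normalized counts were also summed by role, and no difference between roles was tested. The sum over all genes, relative to the mean of the controls, was 0.74, 0.75 and 0.73 in GoF replicates 1, 2 and 3 against 1.10 and 0.90 in the controls. Outside the mitochondrial genome it was 0.898, 0.905 and 0.900 against 1.04 and 0.96. Relative to the mean of the controls, the summed normalized counts of the other neuronal transcription factors were 0.68, 0.62 and 0.70 in GoF replicates 1, 2 and 3, and those of the RNA-binding proteins 0.68, 0.66 and 0.67. The bHLH factors were at 0.73, 0.68 and 0.78 and the synaptic genes at 0.68, 0.72 and 0.68. Every GoF library lay below both controls in these roles, as it did in the sums over all genes. The progenitor factors were at 0.92, 0.95 and 0.90 and the cytoskeletal genes at 0.92, 0.86 and 0.95, close to the lower control in each case (0.91 and 0.94). The adhesion genes lay between the controls. Sums are ruled by the most abundant genes of a role, such as Elavl2 among the RNA-binding proteins.

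**Figure D4:**
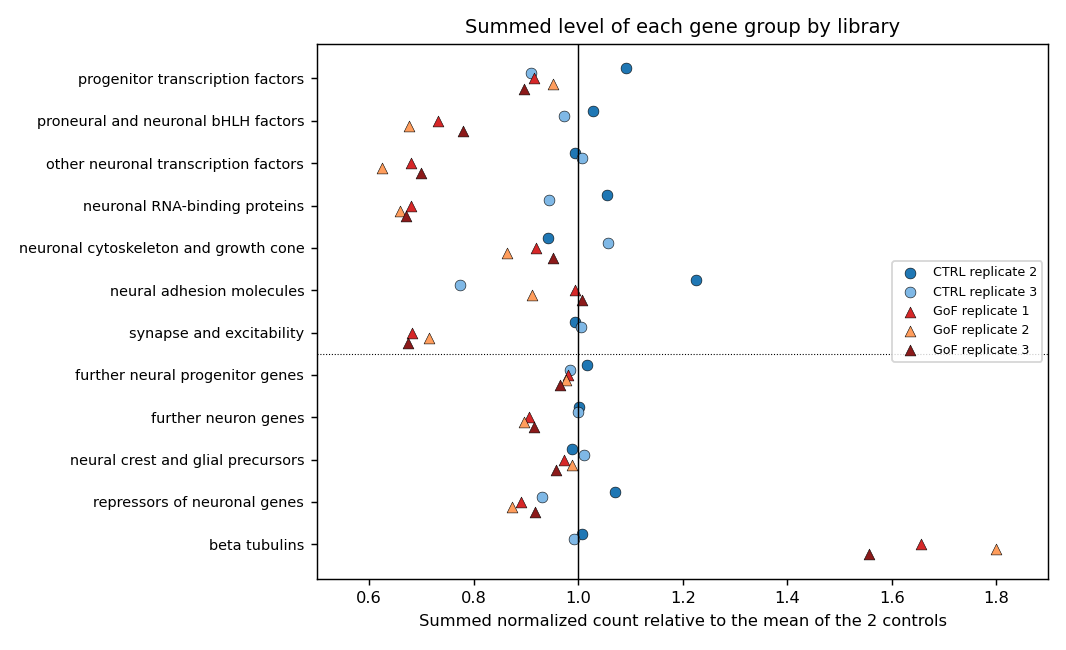
Summed normalized count of each gene group in each library, relative to the mean of the 2 controls (horizontal axis), with the roles of the neural genes above the dotted line and other lists below it. The neuronal factors, RNA-binding proteins and synaptic genes have GoF triangles near 0.7, where the sum over all genes is at 0.73 to 0.75, or 0.898 to 0.905 outside the mitochondrial genome. The progenitor lists lie near 1 and the beta tubulins between 1.56 and 1.80.

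Other neural genes were read from lists of the same kinds. Of 18 further progenitor genes, 3 rose, 3 fell and 12 did not pass. After GC removal 2 of these 18 were called higher and 4 lower (limma). Lin28a, an RNA-binding protein of early progenitors in many tissues, rose from 6607.0 and 6087.1 counts in the control pair to 10324.6 ± 979.0 (SD, n = 3; log2 fold change 0.70, limma adjusted p = 0.00533), and Sox9 rose as well (log2 fold change 0.68, adjusted p = 0.0174). Pax3, a factor of dorsal neural tube and neural crest, fell from 2069.5 and 1532.4 counts in the control pair to 1170.4 ± 46.0 (SD, n = 3; log2 fold change -0.61, limma adjusted p = 0.0191). Nes, the intermediate filament nestin of progenitors, had 6169.7 and 7256.4 counts in the control pair against 5386.5 ± 148.9 in GoF (SD, n = 3; log2 fold change -0.31, limma adjusted p = 0.0412, and 0.128 without GoF replicate 1).

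Of 30 further neuron genes, 4 fell, 1 rose and 25 did not pass. Nova1, a neuronal splicing factor, fell from 2381.3 and 2444.6 counts in the control pair to 1640.8 ± 114.7 (SD, n = 3; log2 fold change -0.56, limma adjusted p = 0.00876, and 0.48 after GC removal). Rtn1, a reticulon of neuronal endoplasmic reticulum, fell from 954.4 and 1144.3 counts in the control pair to 733.3 ± 27.9 (SD, n = 3; log2 fold change -0.51, limma adjusted p = 0.0217, and 0.104 without GoF replicate 1). Ank2 and Cacna2d1, both expressed in neurons and in heart muscle, also fell, by 0.36 and 0.76 on the log2 scale, Ank2 without passing when GoF replicate 1 was left out (adjusted p = 0.126). Gng3, a G protein subunit of neurons, rose (log2 fold change 0.90, limma adjusted p = 0.0391), but did not pass without GoF replicate 1. After GC removal 0 of the 30 neuron genes were called higher and 3 lower (limma). Of 19 neuron subtype factors, Ebf3, Ebf2 and St18 fell, Pax2 rose and 15 did not pass. After GC removal 0 of these 19 were called higher and 1 lower (limma), and Ebf2 and Pax2 did not pass without GoF replicate 1. St18, a zinc finger relative of Myt1, fell from 64.5 and 154.7 counts in the control pair to 23.5 ± 8.43 (SD, n = 3; log2 fold change -2.10, limma adjusted p = 0.0191). Ebf3 is shared by early neurons and by muscle progenitors of the pharynx. Its counts fell from 4775.6 and 4537.3 to 2420.6 ± 130.4 (SD, n = 3; log2 fold change -0.94, limma adjusted p = 0.00235).

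Notch pathway genes, whose signal holds back neuronal differentiation, gave 3 rises among 14 genes and 11 that did not pass. Notch3 rose from 1031.8 and 1205.4 counts in the control pair to 1756.0 ± 89.7 (SD, n = 3; log2 fold change 0.65, limma adjusted p = 0.00781). Lfng and Hey1 rose too, with log2 fold changes of 0.85 and 0.43. After removal of the GC trend none of these 3 genes passed (limma adjusted p = 0.994 for Notch3, 0.575 for Lfng and 0.358 for Hey1), and Lfng and Hey1 did not pass without GoF replicate 1 (adjusted p = 0.156 and 0.16). In that GC-removed fit 2 other Notch genes were called lower, the ligand Dll1 (-0.76, adjusted p = 0.0457) and the receptor Notch2 (-0.37, adjusted p = 0.0327). Their part in the changes of the neural genes was not tested.

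Of 14 known repressors of neuronal genes, 3 rose (Rcor2, Ptbp1 and Id2), 4 fell and 7 did not pass. After GC removal the 3 rises were called and none of the 4 falls (Zeb1, Zeb2, Ptbp2 and Ptbp3). Rcor2, a corepressor that works with the neuronal silencer REST, rose from 375.2 and 534.1 counts in the control pair to 1153.1 ± 22.3 (SD, n = 3; log2 fold change 1.36, limma adjusted p = 0.00389, and 0.0361 after GC removal). Rest itself had 7228.0 ± 232.9 counts in GoF (SD, n = 3) and did not pass. Ptbp1, the splicing repressor that non-neuronal cells and progenitors use, rose from 4437.9 and 4559.7 counts in the control pair to 8276.0 ± 892.9 (SD, n = 3; log2 fold change 0.87, limma adjusted p = 0.00389, and 0.019 after GC removal). Ptbp2, its relative in developing neurons, fell from 8873.4 and 7247.7 counts in the control pair to 6177.3 ± 350.7 (SD, n = 3; log2 fold change -0.38, limma adjusted p = 0.0348). After GC removal the Ptbp2 value turned to 0.25 (adjusted p = 0.0865), and without GoF replicate 1 its call was lost (adjusted p = 0.0975).

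Tubb3 was set beside the other beta tubulins, several of which are expressed in most cells. Of 7 beta tubulin genes, Tubb3 included, 5 rose and 2 did not pass. Tubb5, the most abundant, rose from 11039.0 and 10901.5 counts in the control pair to 18388.6 ± 1350.3 (SD, n = 3; log2 fold change 0.74, limma adjusted p = 0.00381, and 0.0132 after GC removal), and Tubb6, Tubb4b and Tubb4a rose by 0.96, 0.85 and 0.58 on the log2 scale. Tubb2b and Tubb2a, both expressed in neurons, did not pass, with 288.4 ± 45.0 and 70.4 ± 1.35 counts in GoF (SD, n = 3). After removal of the GC trend Tubb5 was the 1 member called, and Tubb4a did not pass without GoF replicate 1 (adjusted p = 0.0657).

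Markers of tissues beside the heart field were read for the same libraries. Of 11 neural crest and glial precursor genes, Tfap2a rose, Pax3 fell and 9 did not pass, with summed counts of 8347.0 and 8524.3 in the controls and 8071.0 to 8340.8 in GoF. Sox10, which marks migrating crest and glia, had 233.3 and 466.7 counts in the control pair against 565.0, 508.0 and 569.6 in GoF (limma adjusted p = 0.0776). In the list of cranial ganglia and placodes, Ret and Pax2 rose and 11 of 13 genes did not pass. Among 10 pharyngeal endoderm and epithelium genes there were 5 rises, 1 fall and 4 that did not pass. After GC removal 0 were called higher and 1 lower (limma). Their summed counts were 5279.7 and 4946.6 in the controls against 6905.2 to 7211.6 in GoF. Of 11 cardiomyocyte genes, 2 rose, 2 fell and 7 did not pass. Their sums, mostly from Ttn, were 283495.1 and 391843.6 in the controls and 184317.6 to 233465.2 in GoF. Gene by gene, 8 of the 11 had a positive log2 fold change and 3 a negative one (median 0.22, and -0.11 after GC removal). Of 8 erythroid genes, Hbb-y and Hba-x rose and 6 did not pass, with sums relative to the control mean of 1.75, 1.53 and 1.96 in GoF against 1.23 and 0.77. Of 14 second heart field genes, Osr1, Tbx5 and Hoxb1 rose, Fgf10 fell and 10 did not pass. After GC removal, 0 crest genes were called higher and 1 lower, and 0 erythroid genes higher and 1 lower (limma). For ganglia and placodes 1 was then higher and 0 lower, for cardiomyocytes 1 and 3, and for the heart field 1 and 1. Without GoF replicate 1, Tfap2a, Pax2, Tbx5, Hoxb1 and Hba-x did not pass. The calls of Ttn, and of Cdh1, Krt8 and Nkx2-1 among the endoderm and epithelium genes, were lost there as well. The 3 hepatocyte genes in the table summed to 582.7 counts in control replicate 2, 8.7 in control replicate 3 and 259.6 to 361.6 in GoF, and none passed (limma, DESeq2 and edgeR, with 0 at an unadjusted limma p under 0.05). The part of such shifts in the changes of the neural genes was not tested.

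The controls differed between themselves in genes of position along the head to trunk axis, among others. Hoxb4, a Hox gene of the posterior hindbrain and trunk, had 302.5 counts in control replicate 2 and 49.9 in control replicate 3, and 265.9 on average in GoF. Of 15 hindbrain and spinal cord genes in the table, 12 were lower in control replicate 3 than in replicate 2, while Otx2 was higher there. Of 14 forebrain and midbrain genes listed besides Otx2, 12 had no values here. The 2 with values were higher in control replicate 3, and 0 were called between GoF and control. Of all 16832 genes, 8541 were lower in control replicate 3. So were 11 of 14 second heart field genes, while 9 of 11 cardiomyocyte genes were higher there. Over the 36 neural genes, 17 were lower and 19 higher in control replicate 3. The controls differed more than 2-fold in 3 of the 36 neural genes and in 2151 of the 16794 genes tested. The middle size of that difference was 0.28 on the log2 scale for the neural genes and 0.30 for all genes tested. Hoxa2, of hindbrain and cranial crest, fell from 1082.2 and 1169.3 counts in the control pair to 838.8, 809.7 and 873.0 (limma adjusted p = 0.0255, and 0.136 without GoF replicate 1), whereas Egr2, a factor of single hindbrain segments, did not pass.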

How the data were processed

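RNA was amplified from 2 ng of total RNA per sample with random and poly-T primers, per the labels' protocols. Build mm10, STAR 2.5.2, DESeq2, HTSeq, R and bcl2fastq 2.17.1.14 appear in the submitters' processing notes. The sources used here do not give the annotation, the strand setting or any filter. In the authors' deposited table, the 5 library columns and their mean are normalized signal: within 0.001, 100% of values were whole multiples of 1 step per library, so whole reads could be recovered. The deposited log2 fold change, test score and p-value are the authors' own comparison, which had 12 of the neural genes under an adjusted p of 0.05 in the authors' deposited table and is not otherwise used. The lowest mean in the table was 6.10, and scarcer genes were not analysed here.

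Genes whose mean reached 10 were fitted on log2(normalized count + 1), without covariates, by limma 3.58.1 under R 4.3.3 (eBayes with trend and robust), and p-values were adjusted by Benjamini-Hochberg over 16794 genes. All 36 neural genes passed this filter. A fold change on this scale understates changes of scarce genes. DESeq2 1.42.0 and edgeR 4.0.16 were run on the recovered reads as alternatives. Fits were tested on simulated data. The GC trend was a lowess curve (span 0.3) per library on the GC content of the longest GENCODE M21 transcript (GRCm38), known for 96.9% of genes. It also removes true change that follows GC content. Members and lists were chosen with earlier results of these data known. Named genes are all members, Hoxb1, and up to 4 called genes per list by adjusted p (otherwise the 2 most abundant), and others are named with a remark or as markers. Amplified reads carry no molecular identifiers, so no counting intervals are given.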

Additional observations from a re-analysis of the deposited data

How the results depend on the processing

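The calls rest on 2 controls and on GoF libraries of which replicate 1 lay between the others. Leaving out a control leaves 1, which is then assumed to vary like the GoF libraries. Leaving out 1 library at a time gave 682 to 2724 genes higher and 559 to 2547 lower over all genes, 0 to 4 neural genes higher and 5 to 8 lower, and a neural median of -0.30 to -0.22 (log2). No neural gene was called higher without any 1 of the GoF libraries (limma; 3 to 5 at an unadjusted p under 0.05), and 2 were without control replicate 2. Without GoF replicates 1, 2 and 3 in turn, 5, 6 and 7 neural genes were lower. Of all genes, 4.06%, 5.53% and 8.13% were then higher and 3.32%, 4.81% and 7.13% lower.

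Removing the GC trend left 506 genes called higher and 542 called lower, with 0 and 4 neural genes. With GoF replicate 1 also left out, 58 and 72 genes and 0 neural genes were called (limma). Scaling to reads outside the mitochondrial genome raised the median of all genes from -0.01 to 0.14. The neural median rose alongside, from -0.28 to -0.14, and 890 genes were called lower (limma). Quantile normalization gave 2 neural genes higher and a neural median of -0.36. The neural median was -0.20 with a filter at a mean of 50 and -0.24 with edgeR. In each case the cause was not tested.

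Replicate numbers are shared by both groups, but the labels tie them to nothing, and the difference between replicates 2 and 3 in the controls had a correlation of 0.0049 with that in GoF over 16794 genes. Among the 5 libraries, replicate 1 is present in GoF alone, so a block for the replicate number takes up that whole library. Its fold changes on the normalized counts therefore equal those without GoF replicate 1, and it is no separate check on them. With the replicate number as a block (replicate block), 765 genes were higher and 606 lower, with 1 and 5 neural genes, and with the GC trend removed as well 73 and 90, with 0 neural genes (limma; 1 higher and 10 lower at an unadjusted p under 0.05).

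Signs turned for uncalled genes with small values. With the GC trend removed, Neurog2 was at -0.15, Dcx 0.33, Stmn2 0.036, Ncam1 -0.074 and Snap25 0.31. Without GoF replicate 1 as well, these values were -0.089, 0.30, 0.019, -0.10 and 0.32, and with the replicate block in its place -0.091, 0.30, 0.019, -0.10 and 0.32. Scaling outside the mitochondrial genome put Sox1 at 0.13, Pax6 at 0.026, Dcx at 0.14 and Snap25 at 0.047. Quantile normalization put Sox1 at 0.046, Nefl at -0.0024 and Nrcam at -0.0083. TMM factors put Sox1 at 0.0089 and Dcx at 0.021. In edgeR Sox1 was at 0.0043, Dcx at 0.021 and Ncam1 at -0.0098, in DESeq2 Ncam1 was at -0.041, and with the replicate block it was at -0.022. Leaving out 1 library gave ranges across 0 for Sox1 (-0.15 to 0.11), Pax6 (-0.28 to 0.036), Pou4f1 (-0.14 to 0.48), Dcx (-0.053 to 0.036), Nefl (-0.12 to 0.26), Nefm (-0.82 to 0.028), Nrcam (-0.21 to 0.25), Ncam1 (-0.39 to 0.40) and Snap25 (-0.31 to 0.10). The 13 called neural genes kept their direction in all 18 alternatives in which they were tested, which are not independent of each other.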
